A study of Mus musculus with 12 samples.

Results

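The genes described here encode proteins that the mouse seminal vesicle secretes into semen: Svs2, Svs3a, Svs4, Svs5, Svs6, Pate4 and Ceacam10. They are 7 of the 18194 genes measured in a study of mouse prostate lacking Med1, a subunit of the Mediator complex that links transcription factors to RNA polymerase II. A probe set is a group of short array probes that read the same transcript. The 7 genes had 14 probe sets annotated to a single symbol, of 45101 on the array, and the brightest probe set of each gene over the 12 arrays gave its value. Svs5 had 5 such probe sets, Ceacam10 had 3, Svs2 had 2, and Svs3a, Svs4, Svs6 and Pate4 had 1 each.

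Total RNA came from mice aged 16 weeks, in 4 groups of 3 arrays: ventral prostate of Med1 knockout mice, ventral prostate of wild-type mice, lateral prostate of mice labelled as Med1 knockout, and lateral prostate of wild-type mice. The strain, the deleted part of Med1 and any Cre driver were not stated in the labels. Nor do the labels tie arrays to separate animals, so each p-value reflects the spread among these arrays alone, which could be technical. In bulk tissue, fewer cells of a type and less RNA per cell cannot be told apart. All levels are log2 signals from robust multi-array averaging (RMA), and a difference of 1 is a doubling. Differences were tested with limma over all 18194 genes, with 0.05 as the threshold for the Benjamini-Hochberg adjusted p. The secretory genes and the gene lists below were chosen with earlier results of these data known. Counts of them set beside the share of all genes are therefore descriptions and no independent test.

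The seminal vesicle is an androgen-dependent gland that empties beside the prostate. The SVS proteins belong to a quickly evolving family that includes the semenogelins, and several of them are cross-linked after ejaculation by TGM4, a transglutaminase made by the prostate, into the copulatory plug. SVS2 is the main plug protein and also coats sperm and protects them in the uterus. SVS3a is another substrate of the cross-linking enzyme, and SVS4, SVS5 and SVS6 are small secreted proteins. PATE4, also called SVS7, is a small protein of the Ly-6 fold that binds sperm, and CEACAM10 is a secreted member of the carcinoembryonic antigen family found in seminal vesicle fluid.

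Svs2, Svs3a, Svs4, Svs5 and Svs6 lie in 1 cluster on mouse chromosome 2, and Ceacam10 lies on chromosome 7. RefSeq promoter windows of assembly GRCm38.p6, from 250 bases before to 50 after the annotated start, were at hand for 6 of the 7 genes. The 100 bases just before the start are shown, 5′ to 3′ on the gene's strand, because the cluster genes and Ceacam10 differed in lateral prostate. There 4 of these 5 cluster genes fell by the test, while Ceacam10 did not pass. Svs2, the remaining cluster gene, also read lower on every lateral array labelled knockout. Its brightest probe set did not pass, and its second probe set did. Capitals mark TATAAA, the core of a TATA box, searched on the gene's strand.
Svs2, minus strand, chr2:164238342-164238441: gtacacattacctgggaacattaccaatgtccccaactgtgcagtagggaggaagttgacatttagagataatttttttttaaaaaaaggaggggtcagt
Svs4, minus strand, chr2:164278308-164278407: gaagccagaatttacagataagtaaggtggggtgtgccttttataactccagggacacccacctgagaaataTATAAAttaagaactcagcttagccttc
Svs3a, plus strand, chr2:164289167-164289266: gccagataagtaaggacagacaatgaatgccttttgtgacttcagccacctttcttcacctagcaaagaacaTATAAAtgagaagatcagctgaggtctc
Svs6, plus strand, chr2:164316651-164316750: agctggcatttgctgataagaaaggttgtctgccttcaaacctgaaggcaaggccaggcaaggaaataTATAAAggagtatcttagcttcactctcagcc
Svs5, plus strand, chr2:164332665-164332764: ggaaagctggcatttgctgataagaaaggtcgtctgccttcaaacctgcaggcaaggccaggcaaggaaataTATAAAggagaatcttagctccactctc
Ceacam10, plus strand, chr7:24777067-24777166: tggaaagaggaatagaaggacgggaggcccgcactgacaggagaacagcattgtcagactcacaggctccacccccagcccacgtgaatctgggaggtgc

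TATAAA began 28 bases before the start of Svs3a, Svs4 and Svs5 and 32 bases before that of Svs6. The nearest copy upstream of Svs2 was 205 bases from its start, outside the stretch shown, and the Ceacam10 window held none. Over 27025 promoters of the same length, 8.88% held TATAAA on the gene's strand and 2.67% held it 15 to 50 bases before the start. The Svs5 and Svs6 windows were near copies of each other, with 93.8% of 304 aligned columns identical and 131 bases in a row shared. Svs3a, Svs4, Svs5 and Svs6 were 54.7 to 57.9% identical in the other pairs among them. TGTTCT, a hexamer that the androgen receptor and its relatives bind, stood on either strand in 4 of the 6 windows (Svs3a, Svs5, Svs6 and Ceacam10) and in 19.0% of all promoters. These matches describe the sequences and are not evidence of binding. Whether they relate to the lateral differences was not tested.

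Med1 itself was lower in knockout ventral prostate, at 8.86 ± 0.16 against 9.43 ± 0.12 in wild-type ventral prostate (SD, n = 3 each), a difference of -0.57 ± 0.12 (moderated SE, limma adjusted p = 0.0119). Without knockout ventral replicate 3 it missed the threshold, at -0.48 (limma adjusted p = 0.0518). In lateral prostate Med1 averaged 8.39 ± 0.049 in the arrays labelled knockout and 8.52 ± 0.26 in wild type (SD, n = 3 each), and the difference of -0.13 ± 0.12 did not pass (limma adjusted p = 0.622), so that group is called labelled knockout. The genotype comes from the labels in both lobes. Tested directly, the lobes did not differ in the Med1 effect (0.44 ± 0.18, limma adjusted p = 0.136). The name therefore does not mean that the loss of Med1 was shown to differ between the lobes. No source used here says whether the Med1 probes lie in the deleted part. Arrays of a group correlated at r of 0.992 to 0.996 over all probe sets. Replicate 3 stood apart for some genes in each group. In knockout ventral, wild-type ventral and labelled-knockout lateral prostate this touched some of the secretory genes, described below, and in wild-type lateral prostate it touched genes that are high in ventral prostate. In wild-type lateral replicate 3 Spink5 read 5.97, against 3.60 and 3.47 in the other wild-type lateral arrays, and Crabp1 read 8.13, against 5.11 and 5.33. Its reading of each of the 7 secretory genes differed by at most 0.152 from the mean of the other wild-type lateral arrays.

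Most of the secretory genes read lower in the lateral prostate arrays labelled knockout than in wild-type lateral prostate, and Ceacam10 did not. Svs4, Svs5, Svs6 and Svs3a fell, by a range of 2.78-fold for Svs3a to 11.2-fold for Svs4. The arrays of the groups did not overlap for 6 of the 7 genes, all lower with the knockout label, where 15.7% of all genes had non-overlapping arrays in that direction. By the test, 4 of the 7 were lower and 0 higher, against 3.42% of all genes lower and 1.62% higher. Because the genes were chosen with earlier results known, an excess over these shares is partly a matter of that choice. The median difference was -2.53 over the 7 genes and -0.0025 over all genes.

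**Figure D1:**
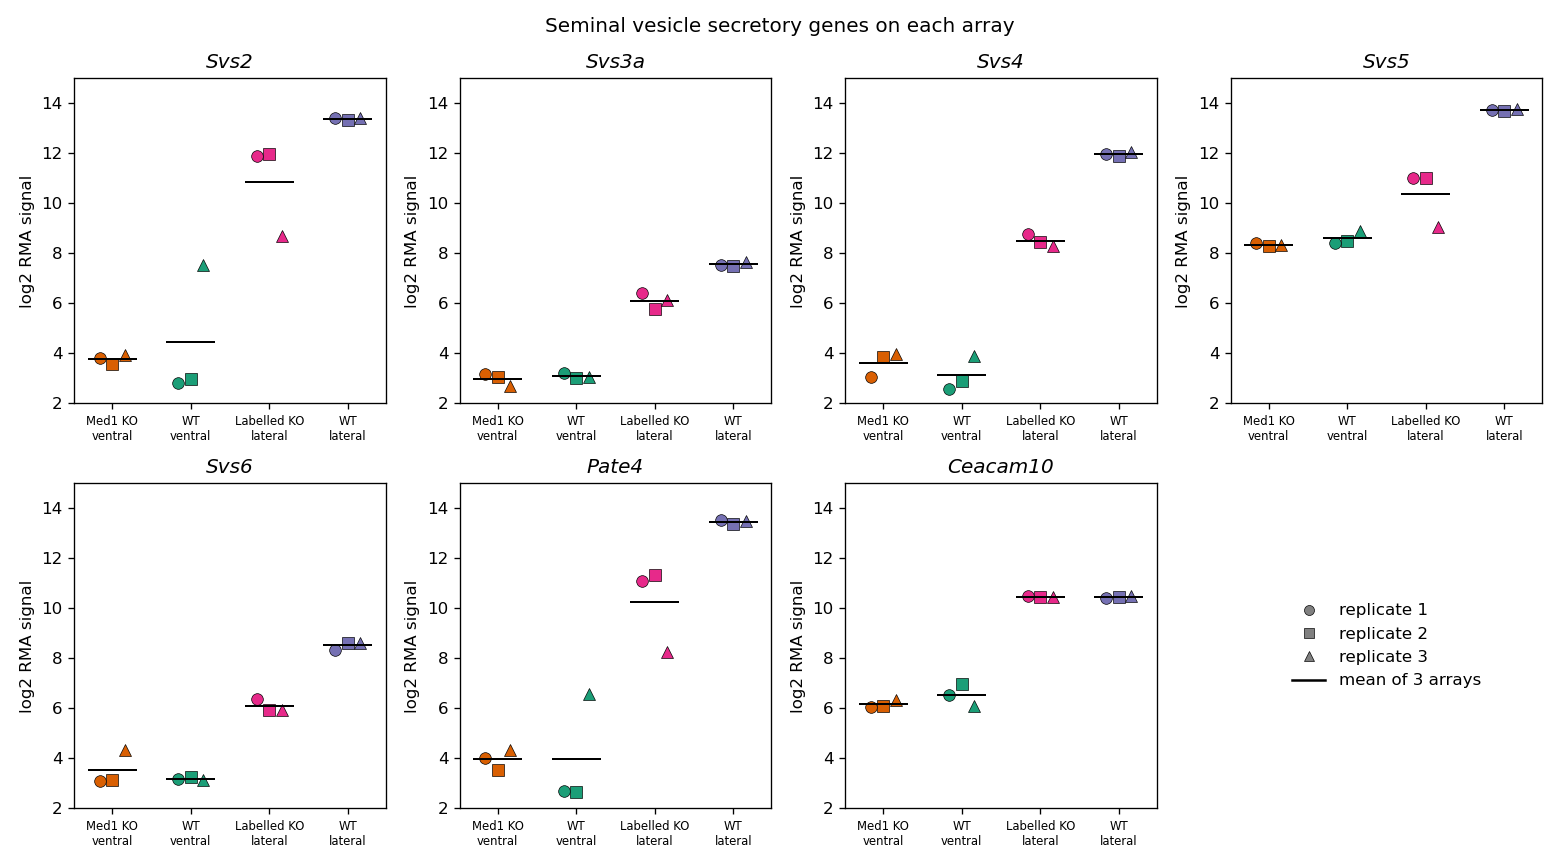
Log2 RMA signal (vertical axis) of each secretory gene on each of the 12 arrays, with 1 marker shape per replicate number and a bar at the mean of the 3 arrays of a group, for Med1 knockout ventral, wild-type ventral, labelled-knockout lateral and wild-type lateral prostate. In lateral prostate every labelled-knockout array is below every wild-type array for each gene but Ceacam10, and replicate 3 is far from the others for Svs2 and Pate4 in wild-type ventral and labelled-knockout lateral prostate.

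Svs2, the main plug protein, read 11.89, 11.99 and 8.71 in the 3 lateral arrays labelled knockout, against 13.42, 13.35 and 13.40 in the wild-type lateral arrays. All 3 labelled-knockout arrays were below all wild-type arrays, and replicate 3 was at -3.23 against the mean of the other labelled-knockout arrays. The difference was -2.53 ± 1.03 (moderated SE, n = 3 each) and did not pass over all 12 arrays (limma adjusted p = 0.186). Without wild-type ventral replicate 3 and labelled-knockout lateral replicate 3, both far from their groups for this gene, the difference was -1.45 and passed (limma adjusted p = 2.3e-05). Without wild-type ventral replicate 3 alone, which enters only through the shared estimate of the spread, the difference of -2.53 passed too (limma adjusted p = 0.0320). It did not pass without labelled-knockout lateral replicate 3 alone, at -1.45 (limma adjusted p = 0.494), nor with only the 6 lateral arrays (limma adjusted p = 0.0866). The second Svs2 probe set read 7.03, 7.22 and 3.63 with the knockout label and 11.75, 11.62 and 11.84 in wild type. Its difference of -5.78 ± 0.65 passed (limma adjusted p = 1.55e-04 over all probe sets) and was larger than that of the brighter probe set. The same replicate 3 was the lowest array in both probe sets.

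Svs3a, the other cross-linking substrate, read 6.40, 5.78 and 6.12 in the lateral arrays labelled knockout, against 7.54, 7.51 and 7.67 in wild-type lateral prostate. The groups were well apart, and replicate 2 was the lowest of the labelled-knockout arrays. Svs3a fell by 1.47 ± 0.15 on the log2 scale, or 2.78-fold (moderated SE, limma adjusted p = 3.87e-05). A further pair of probe sets was annotated to both Svs3a and its near copy Svs3b and was used for neither gene by name. These shared probe sets differed by -1.87 (limma adjusted p = 5.94e-04 over all probe sets) and -1.29 (limma adjusted p = 0.00278 over all probe sets) in the same comparison. Labelled-knockout replicate 2 was lowest on both, at 4.21 against 5.33 and 5.40, and at 3.47 against 4.18 and 4.35.

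Svs4, a small basic secreted protein, read 8.76, 8.44 and 8.28 in the lateral arrays labelled knockout, against 11.98, 11.91 and 12.06 in wild-type lateral prostate. It fell by 3.49 ± 0.29 on the log2 scale, or 11.2-fold (moderated SE, limma adjusted p = 6.41e-06). Replicate 3 of the labelled-knockout arrays was at -0.32 against the mean of the other 2, so Svs4 did not share the wide gap seen there for Svs2.

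Svs5 read 11.02, 11.03 and 9.06 in the lateral arrays labelled knockout, against 13.74, 13.70 and 13.76 in wild-type lateral prostate. It fell by 3.36 ± 0.37 on the log2 scale, or 10.3-fold (moderated SE, limma adjusted p = 8.22e-05). Labelled-knockout replicate 3 was the lowest array here too, and without it and wild-type ventral replicate 3 the difference was -2.71 (limma adjusted p = 7.43e-09). The other 4 Svs5 probe sets differed by -2.94 to -4.43, and 3 of those 4 passed over all probe sets, the exception being the one at -2.94 (limma adjusted p = 0.128).

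Svs6, whose promoter is the near copy of that of Svs5, read 6.37, 5.95 and 5.95 in the lateral arrays labelled knockout, against 8.32, 8.61 and 8.62 in wild-type lateral prostate. It fell by 2.43 ± 0.25 on the log2 scale, or 5.39-fold (moderated SE, limma adjusted p = 4.23e-05). No labelled-knockout array stood apart for Svs6, unlike for Svs5.

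Pate4, the small sperm-binding protein, read 11.11, 11.35 and 8.26 in the lateral arrays labelled knockout, against 13.52, 13.40 and 13.49 in wild-type lateral prostate. The groups did not overlap, and replicate 3 was at -2.97 against the mean of the other labelled-knockout arrays. The difference of -3.23 ± 0.90 (moderated SE, n = 3 each) missed the threshold (limma adjusted p = 0.0557). It passed at -2.24 without wild-type ventral replicate 3 and labelled-knockout lateral replicate 3 (limma adjusted p = 2.3e-05), and at -3.23 without wild-type ventral replicate 3 alone (limma adjusted p = 0.00515) or with only the 6 lateral arrays (limma adjusted p = 0.0275). It did not pass without labelled-knockout lateral replicate 3 alone, at -2.24 (limma adjusted p = 0.188), nor with trended robust variances (limma adjusted p = 0.165).

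Ceacam10 read 10.50, 10.44 and 10.44 in the lateral arrays labelled knockout, against 10.42, 10.47 and 10.51 in wild-type lateral prostate. The arrays of the groups interleaved. The difference was -0.0065 ± 0.16 (moderated SE, limma adjusted p = 0.986), with a 95% interval from -0.35 to 0.34 that leaves out the differences measured for the other 6 genes. The second brightest Ceacam10 probe set differed by 0.022 (limma adjusted p = 0.952 over all probe sets). The third, at low signal in both lateral groups, read 3.70, 3.75 and 3.62 with the knockout label and 3.46, 3.25 and 3.46 in wild type, and its difference of 0.30 did not pass (limma adjusted p = 0.101 over all probe sets).

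**Figure D2:**
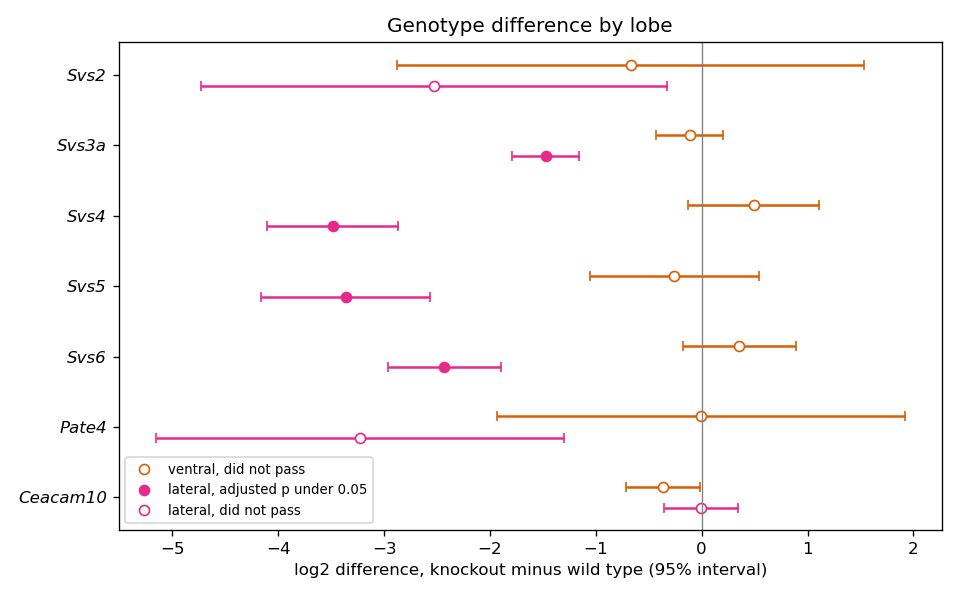
Difference in log2 RMA signal, arrays labelled knockout minus wild type (horizontal axis), of each secretory gene in ventral and lateral prostate, with its 95% interval from limma. Filled points passed at an adjusted p under 0.05: Svs3a, Svs4, Svs5 and Svs6 in lateral prostate, from -1.47 to -3.49, while the intervals of Svs2 and Pate4 are wide in both lobes.

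In ventral prostate the same genes were read at low signal, apart from Svs5 and Ceacam10, and none passed between the genotypes. The deposited values hold no detection calls. A group mean below the lower quartile of all probe sets in that lobe (4.73 in ventral and 4.52 in lateral arrays) was therefore taken as low signal. Svs2, Svs3a, Svs4, Svs6 and Pate4 were under that mark in both ventral groups, and their ventral differences are differences between low readings. With limma 0 of the 7 genes passed, against 5.88% of all genes higher and 3.2% lower. Before adjustment, limma put 1 of the 7, Ceacam10, under 0.05. The median difference was -0.11 over the 7 genes and -0.020 over all genes.

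Svs2 read 3.80, 3.58 and 3.94 in knockout ventral arrays, against 2.80, 2.99 and 7.55 in wild-type ventral arrays. Pate4 read 4.0, 3.55 and 4.34 in knockout ventral arrays, against 2.68, 2.66 and 6.58 in wild-type ventral arrays. For both genes wild-type replicate 3 was far above every other ventral array, while the other wild-type arrays were below all 3 knockout arrays. Their differences over all arrays were -0.67 for Svs2 (limma adjusted p = 0.732) and -0.010 for Pate4 (limma adjusted p = 0.997). Without wild-type ventral replicate 3 and labelled-knockout lateral replicate 3 they turned to 0.88 for Svs2 (limma adjusted p = 0.00138) and 1.29 for Pate4 (limma adjusted p = 0.00165). Svs4 then passed as well, at 0.88 (limma adjusted p = 0.0481), so that 3 genes passed in the higher direction, all at low signal, and Ceacam10 passed in the lower one, at -0.58 (limma adjusted p = 0.0275). Without wild-type ventral replicate 3 alone, Svs4 at 0.88 (limma adjusted p = 0.0430) and Ceacam10 at -0.58 (limma adjusted p = 0.0186) passed, while Svs2 (limma adjusted p = 0.516) and Pate4 (limma adjusted p = 0.288) did not. Both arrays were picked for standing apart in Svs2 and Pate4, so these p-values only describe the dependence on them.

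Ceacam10 was above the low mark in ventral prostate and read 6.06, 6.10 and 6.34 in knockout arrays, against 6.53, 6.97 and 6.09 in wild-type arrays. The groups overlapped through wild-type replicate 3, and the difference was -0.36 ± 0.16 (moderated SE, limma adjusted p = 0.180). Its second brightest probe set differed by -0.47 and passed (limma adjusted p = 0.0454 over all probe sets). Svs5 read 8.43, 8.28 and 8.34 in knockout ventral arrays, against 8.43, 8.50 and 8.89 in wild-type ventral arrays, with a difference of -0.26 ± 0.37 (limma adjusted p = 0.715). The knockout arrays were all just below the wild-type arrays, where 14.6% of all genes had non-overlapping arrays in that direction. Svs3a, Svs4 and Svs6 differed by -0.11, 0.49 and 0.35, with limma adjusted p from 0.319 to 0.687.

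The Svs5 values above are those of its brightest probe set. The other 4 read 3.92 to 5.83 in knockout ventral arrays and 2.92 to 7.86 in wild-type ventral arrays. In wild-type ventral replicate 3 those 4 probe sets read 5.80 to 7.86, against 2.92 to 5.07 in the other wild-type ventral arrays. On the brightest probe set replicate 3 was 0.42 above the mean of the other wild-type ventral arrays.

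**Figure D3:**
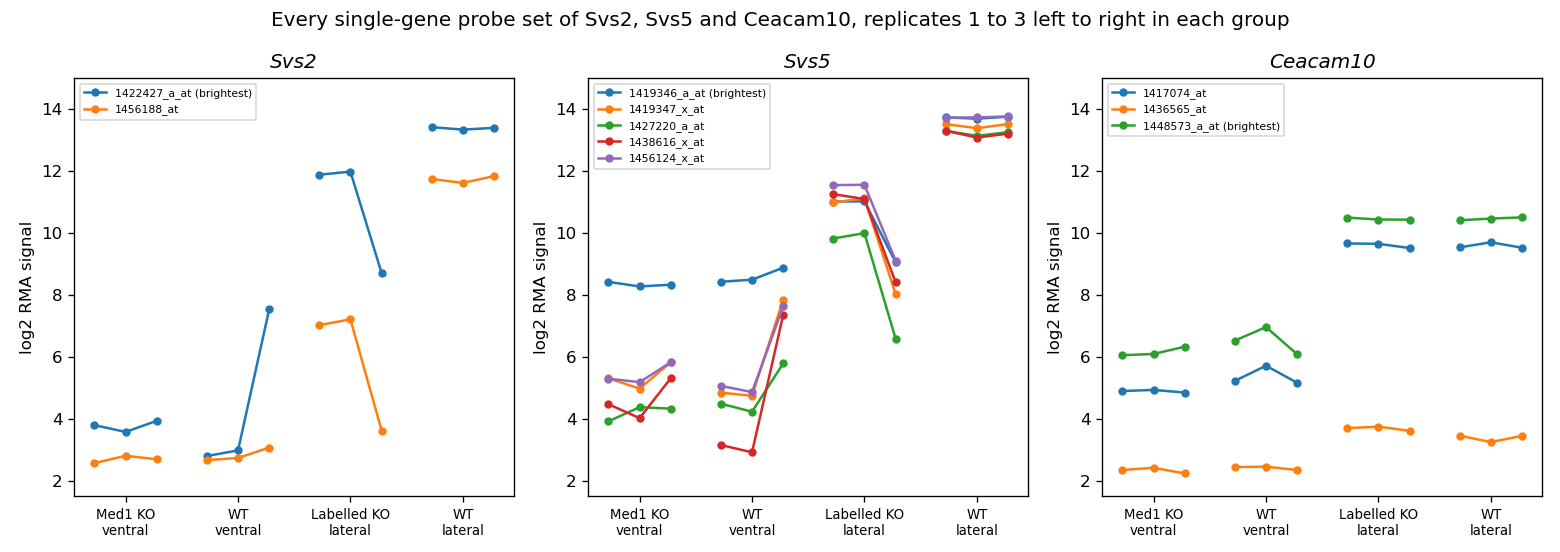
Log2 RMA signal (vertical axis) of every single-symbol probe set of Svs2, Svs5 and Ceacam10, with replicates 1 to 3 from left to right in Med1 knockout ventral, wild-type ventral, labelled-knockout lateral and wild-type lateral prostate. The brightest Svs5 probe set stays above 8 in ventral prostate, the other 4 read 2.92 to 7.86 there, and all Svs5 and Svs2 probe sets dip in labelled-knockout lateral replicate 3.

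The arrays that stood apart did so for some of the genes only. In wild-type ventral replicate 3, Svs2 was 4.65, Pate4 3.91 and Svs4 1.17 above the mean of the other wild-type ventral arrays, while Svs3a was at -0.076, Svs6 at -0.058 and Ceacam10 at -0.66 against that mean. In labelled-knockout lateral replicate 3, Svs2 was at -3.23, Pate4 at -2.97 and Svs5 at -1.97 against the mean of the other labelled-knockout lateral arrays, while Svs3a was at 0.035 and Ceacam10 at -0.037. Svs2 and Pate4 thus moved together: after subtracting group means their Pearson correlation was 0.99 over the 12 arrays and 0.89 over the 10 arrays left without those 2. Both genes were read on the same arrays, and the correlation is a description. Knockout ventral replicate 3 was apart for Svs6, which read 4.34 there, against 3.11 and 3.14 in the other knockout ventral arrays, and without it the ventral difference of Svs6 was -0.053 (limma adjusted p = 0.878). Outside the list, 9530003J23Rik, a gene named below for its likeness, read 4.82, 4.68 and 5.89 in knockout ventral arrays and 4.66, 4.51 and 5.86 in wild-type ventral arrays, so it was high in replicate 3 of both.

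The difference between the lobes in the knockout effect was tested directly. The effect was more negative in lateral than in ventral prostate for Svs4, by -3.98 ± 0.41 (limma adjusted p = 5.27e-05), Svs5, by -3.11 ± 0.52 (limma adjusted p = 0.00217), Svs6, by -2.78 ± 0.35 (limma adjusted p = 2.83e-04), and Svs3a, by -1.36 ± 0.21 (limma adjusted p = 0.00114). That is 4 of 7 genes lower and 0 higher, against 6.51% of all genes lower and 2.8% higher, for genes chosen with earlier results known. Pate4, at -3.22 (limma adjusted p = 0.131), Svs2, at -1.86 (limma adjusted p = 0.445), and Ceacam10, at 0.36 (limma adjusted p = 0.346), did not pass. Without wild-type ventral replicate 3 and labelled-knockout lateral replicate 3, Svs2 at -2.33 and Pate4 at -3.53 passed as well (limma adjusted p = 9.62e-06 each). These arrays were picked for standing apart in those 2 genes, so this pass is no separate support. Svs3a, Svs4 and Svs6 were at low signal in both ventral groups.

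All 7 genes were higher in lateral than in ventral prostate, in the arrays labelled knockout and in wild type, and every lateral array was above every ventral array for each of them. In the arrays labelled knockout the lateral minus ventral difference was 7.09 for Svs2, 6.28 for Pate4, 4.87 for Svs4, 4.30 for Ceacam10, 3.12 for Svs3a, 2.56 for Svs6 and 2.02 for Svs5 (limma adjusted p at most 2.37e-04). In wild-type mice it was 9.50 for Pate4, 8.94 for Svs2, 8.85 for Svs4, 5.34 for Svs6, 5.13 for Svs5, 4.48 for Svs3a and 3.94 for Ceacam10 (limma adjusted p at most 3.49e-06). Higher lateral signal passed for 14.2% of all genes with the knockout label and 12.3% in wild type, lateral arrays lay wholly above ventral ones for 15.3% of all genes with the knockout label and 14% in wild type, and the median over all genes was -0.31 with the knockout label and -0.34 in wild type. For 5 of the genes ventral signal was low, so the sizes rest on low readings. With each array left out, the difference of Svs2 ranged from 6.52 to 8.16 with the knockout label and from 8.12 to 10.50 in wild type, and with the mean of its probe sets it was 5.18 with the knockout label. The other 4 Svs5 probe sets gave 7.66 to 8.72 in wild type. The distributions of the arrays differ between the lobes as if RMA had been run on each lobe apart, so lobe and normalization run cannot be told apart. After joint quantile normalization of all 12 arrays the median over the 7 genes was 4.77 with the knockout label and 5.68 in wild type, and the median over all genes was 0.078 with the knockout label and 0.049 in wild type.

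The order of the group means of Svs3a, Svs4, Svs5 and Svs6 was wild-type lateral above labelled-knockout lateral above the ventral groups. The step between the lateral groups and that from labelled-knockout lateral to knockout ventral passed the test, and that between the ventral genotypes did not. Svs2 and Pate4 had the same order, in which the step between the lateral groups did not pass over all 12 arrays. For Ceacam10 neither the lateral groups, at 10.46 ± 0.037 with the knockout label and 10.47 ± 0.047 in wild type, nor the ventral groups, at 6.17 ± 0.15 in knockout and 6.53 ± 0.44 in wild type (SD, n = 3 each), differed beyond the test.

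Genes around the Svs cluster on chromosome 2 were taken from the reference gene order, with 5 on each side and Svs3b, which lies within the cluster. Of these 11 neighbours 8 were measured, and in lateral prostate 1 was lower and 1 higher with the knockout label. Wfdc15b, a whey acidic protein domain gene next to Svs2, averaged 6.51 ± 0.15 with the knockout label and 7.72 ± 0.21 in wild type (SD, n = 3 each), and fell by 1.21 on the log2 scale (limma adjusted p = 1.09e-04). In ventral prostate Wfdc15b was higher in knockout by 0.48 (limma adjusted p = 0.0443). Slpi, a secreted protease inhibitor on the other side next to Svs5, averaged 8.59 ± 0.23 with the knockout label and 7.14 ± 0.17 in wild type (SD, n = 3 each), and rose by 1.45 (limma adjusted p = 4.12e-05). Wfdc5, Wfdc12, Wfdc15a, Matn4, Rbpjl and Sdc4 did not pass in either lobe. Pate4 and Ceacam10 had 1 measured neighbour each, Hyls1 and Cd177, and neither passed.

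**Figure D4:**
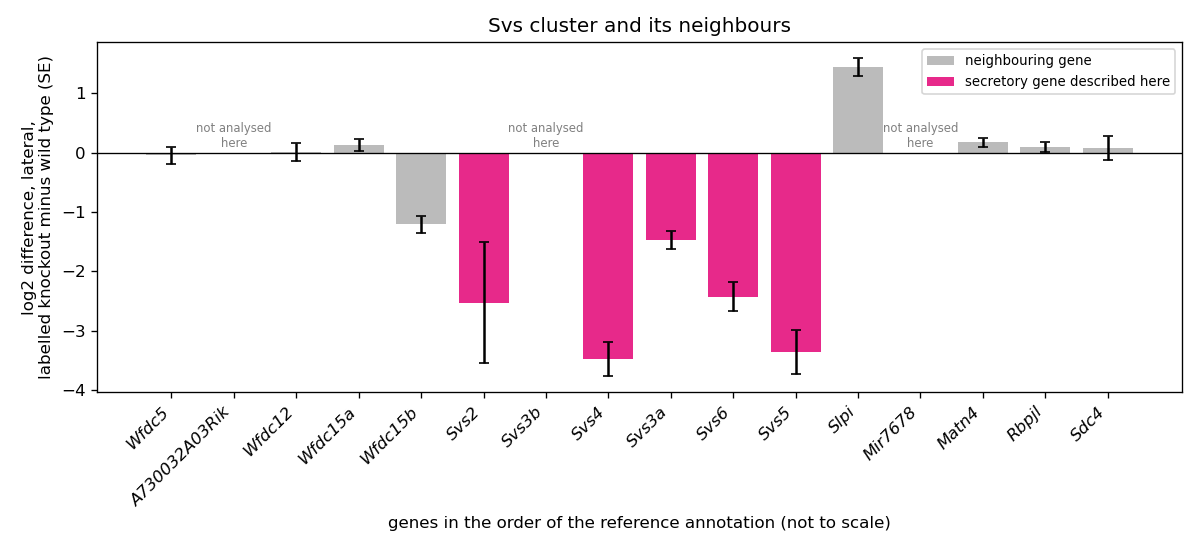
Difference in log2 RMA signal between labelled-knockout and wild-type lateral prostate (vertical axis, bars with moderated SE) of the genes in and around the Svs cluster, in the order of the reference annotation and not to scale. The 5 Svs genes and Wfdc15b have the most negative bars, with Svs4 at -3.49, and Slpi beside Svs5 is at 1.45.

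Of 11 other listed products of the seminal vesicle, 5 were measured, and in lateral prostate 1 was lower with the knockout label and 0 higher, where 3.42% of all genes were lower and 1.62% higher. The lower one was Sva, a secreted inhibitor of sperm motility, which read 4.85, 4.71 and 4.70 with the knockout label, against 5.75, 5.83 and 6.03 in wild type, and fell by 1.12 ± 0.10 on the log2 scale (limma adjusted p = 1.59e-05). In ventral prostate Pip was lower in knockout by -0.50 (limma adjusted p = 0.0243), at low signal in both groups. Spinkl, a protease inhibitor-like protein of seminal fluid, differed by -0.046 in lateral prostate (limma adjusted p = 0.919), and Spink1 and 9530002B09Rik did not pass in either lobe.

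Of 13 listed genes of plug formation and semen proteolysis, 10 were measured. Tgm4, the enzyme that cross-links the SVS proteins, read 8.40, 8.31 and 9.03 in knockout ventral arrays, against 11.20, 10.78 and 11.21 in wild-type ventral arrays. Tgm4 fell there by 2.48 ± 0.16 on the log2 scale (limma adjusted p = 1.28e-06), while in lateral prostate it averaged 13.58 ± 0.023 with the knockout label and 13.60 ± 0.0065 in wild type (SD, n = 3 each; limma adjusted p = 0.965). The difference between the lobes in the effect on Tgm4 was 2.46 (limma adjusted p = 2.17e-05). In lateral prostate 3 genes of the list rose and 1 fell, against 1.62% and 3.42% of all genes. Those that rose were Slpi, Eppin, which binds semenogelin and differed by 1.16 (limma adjusted p = 0.00111), and the kallikrein Klk1b24, by 0.67 (limma adjusted p = 0.0208). The 1 that fell was Plau, the urokinase plasminogen activator, at 5.69 ± 0.53 with the knockout label and 10.74 ± 0.24 in wild type (SD, n = 3 each), a gene that fell by 5.05 ± 0.23 on the log2 scale (limma adjusted p = 1.21e-08). In ventral prostate Tgm4 and Klk1b24 were the 2 that fell, with Klk1b24 at -0.52 (limma adjusted p = 0.0466).

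Markers of tissues that could lie in or beside the dissected lobes are given for the same arrays, and their part in the results was not tested. Of 10 transcription factors listed here for the Wolffian duct, from which the seminal vesicle and epididymis form, 8 were measured. A listed factor need not be particular to that duct. In lateral prostate 3 of the 8 fell and 0 rose, where 3.42% of all genes fell and 1.62% rose: Emx2 at -3.99 (limma adjusted p = 1.09e-10), Foxi1 at -2.96 (limma adjusted p = 7.35e-08) and Hoxd13 at -0.43 (limma adjusted p = 0.0146). This list too was chosen with earlier results known, so the count is not independent of these data. Emx2 read 4.04 to 4.30 with the knockout label and 7.96 to 8.28 in wild type. By limma 0 of the 8 passed in ventral prostate, and 1 (Hoxd13) was under 0.05 before adjustment. The mean log2 level of the 8 factors was 5.63 to 5.74 in lateral arrays labelled knockout and 6.59 to 6.63 in wild-type lateral arrays. Emx2 and Foxi1 weigh most in that mean, and the median lateral difference of the 8 was -0.22. Pax8, Lhx1, Wt1, Hoxa10 and Hoxa11 did not pass there, at -0.38 to 0.15. The mean log2 level of the 5 other seminal vesicle products was 7.86 to 7.98 in lateral arrays labelled knockout and 7.77 to 8.34 in wild-type lateral arrays. The brightest of these 5, Spink1 and 9530002B09Rik, averaged higher in wild-type ventral (14.09 and 13.80) than in wild-type lateral prostate (12.04 and 13.27). Spink1 read 11.77, 10.96 and 13.38 in the wild-type lateral arrays, so this mean says little about the other products.

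Of 9 epididymis markers measured 0 passed by limma in lateral prostate (1, Lcn5, was under 0.05 before adjustment), where their mean level was 5.17 to 5.30 with the knockout label and 5.02 to 5.17 in wild type, and in ventral prostate Adam7 rose and Adam28 fell. Of 8 markers of prostate luminal cells 0 passed by limma in lateral prostate (1, Cd24a, was under 0.05 before adjustment), at mean levels of 11.60 to 11.68 with the knockout label and 11.65 to 11.67 in wild type, and Pbsn fell in ventral prostate. These luminal markers read high in all groups. Of 5 products that differ between prostate lobes, 1 fell in lateral prostate (Apof) and 3 fell in ventral prostate. Of 8 smooth muscle markers 3 fell in lateral and 5 rose in ventral prostate, of 5 urothelial markers 2 rose in lateral prostate (Upk1a and Upk3b), and of 7 leukocyte markers 1 (Csf1r) rose in ventral prostate. Apart from those named or counted, no marker of these lists passed in either lobe. Over all genes, 1.62% rose and 3.42% fell in lateral prostate, and 5.88% rose and 3.2% fell in ventral prostate.

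Genes whose pattern was most like that of the 7 secretory genes were sought by Pearson correlation with their mean over the 12 arrays, among 8742 genes. On values as given, which mostly follow the step between lobes, these were Npy, Hoxb2, 9530003J23Rik, Ank1, Tubb3, Plin4, Palmd and Tulp2, with r from 0.98 to 0.99. After subtracting group means, which leaves the deviations of single arrays, they were Terf1 (r = 0.97), Cdo1 (0.95), Chst13 (0.94), Rasd2, Myo3b, 4933426B08Rik, Klrd1 and Grk5 (0.90 to 0.92 for these 5). Cdo1, which starts the breakdown of cysteine, read 9.21, 9.29 and 8.42 in the lateral arrays labelled knockout, against 12.44, 12.37 and 12.50 in wild-type lateral arrays. In ventral prostate Cdo1 read 9.14, 9.05 and 9.01 in knockout arrays, against 8.54, 8.61 and 9.38 in wild-type arrays. It was thus low in labelled-knockout lateral replicate 3 and high in wild-type ventral replicate 3, as Svs2 and Pate4 were, and it fell in lateral prostate by 3.47 ± 0.22 on the log2 scale (limma adjusted p = 5.54e-07). All these arrays are shared with the genes they are likened to, so the correlations are descriptions without a test.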

How the data were processed

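Total RNA of mouse ventral and lateral prostate was hybridised to 12 single-colour Affymetrix arrays. The authors deposited log2 signals. Per the submitters' processing notes they used RMA in Affymetrix Expression Console, and no version is stated there. RMA corrects background, normalizes arrays to a shared distribution and summarises each probe set, which compresses differences at low signal. Sorted values had a median range of 0.0493 over the ventral, 0.0786 over the lateral and 0.388 over all arrays, so the lobes look separately normalized.

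Symbols of probe sets with 1 gene (34958 of 45101) were updated through Entrez identifiers with the RefSeq table of GRCm38.p6, and the brightest probe set stood for each of 18194 genes. limma 3.58.1 (R 4.3.3) fitted 4 group means over all 12 arrays (8 residual and 5.68 prior degrees of freedom), with Benjamini-Hochberg adjustment over all genes. Adjusted p over probe sets comes from the same fit on all 45101. The number of arrays limits the precision. On simulated data for the lateral comparison, 28 of 67 genes changed by 0.5, 67 of 67 changed by 1 and 66 of 66 changed by 2 (log2) were called, with 9 false calls. The changed genes were picked at random and the noise was normal and independent between arrays. It held no single arrays that stand apart, as those for Svs2 and Pate4 do, so it does not speak for such genes.

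The members and gene lists were chosen with earlier results of these data known, and the low-signal mark after the values were seen. Named genes are the 7 members, Med1, the smallest p of each list, cluster neighbours, and the 8 genes most like the members by each of 2 measures, among genes with an SD of at least 0.3. Alternatives were joint quantile normalization, median centring, the dimmest 40% of genes left out, the mean of all probe sets, trended robust variances, a replicate block, fewer arrays, and each array left out. Listed genes without a single-symbol probe set were not analysed here. Protein sequences and the Pate4 promoter were not used here.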

Additional observations from a re-analysis of the deposited data

Results flagged for a closer look

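The knockout effect, knockout minus wild type, was unequal between the lobes by the limma interaction term for 4 of the secretory genes, as lateral minus ventral effect on the log2 scale: Svs4 (-3.98), Svs5 (-3.11), Svs6 (-2.78) and Svs3a (-1.36), with limma adjusted p at most 0.00217.

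The same term passed for 28 other genes named here, with limma adjusted p at most 0.0386. It was negative for Plau (-5.63), Emx2 (-4.05), Cdo1 (-3.69), Foxi1 (-2.81), 9530003J23Rik (-2.17), Adam7 (-1.73), Wfdc15b (-1.69), Sva (-1.34), Grk5 (-0.99), Ank1 (-0.98), Rasd2 (-0.94), Tubb3 (-0.85), Hoxb2 (-0.82), Plin4 (-0.67), Hoxd13 (-0.67), Hoxa11 (-0.54) and Tulp2 (-0.50). It was positive for Tgm4 (2.46), Slpi (1.36), Pbsn (1.31), Klk1b24 (1.19), Eppin (1.10), Adam28 (0.93), Chst13 (0.86), Upk3b (0.81), Lcn5 (0.66), Upk1a (0.66) and Apof (0.50). Over all genes the term passed for 6.51% in the negative and 2.8% in the positive direction. Cdo1, Chst13, Rasd2, Grk5, Hoxb2, 9530003J23Rik, Ank1, Tubb3, Plin4 and Tulp2 were named for following the secretory genes over these arrays, so their effects are not independent of those genes. Adam7, Adam28, Lcn5, Pbsn, Apof, Upk1a and Upk3b were named for their genotype difference within a lobe. The count of 28 is therefore not comparable with these shares. Listed genes not named above, such as Mmp7 (2.02) and Synpo2 (-1.70), passed the term too and are not counted.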

How the results depend on the processing

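In lateral prostate Svs3a, Svs4, Svs5 and Svs6 fell under every alternative that tested them (the filter on dim genes took Svs3a and Svs6 out of the test, leaving 2 of the secretory genes lower in the test of unequal effects, where 4 passed over all genes), and with each array left out 4 to 6 secretory genes fell and 0 rose. Svs2 and Pate4 depended on 2 arrays, which were picked because they stood apart for these genes. Without wild-type ventral replicate 3 and labelled-knockout lateral replicate 3, 3 secretory genes were higher and 1 lower in ventral prostate, where 0 were called over all arrays, with Svs2 at 0.88 and Pate4 at 1.29, and Ceacam10 was at 0.0058 in lateral prostate. Svs2 passed in lateral prostate with the mean of its probe sets (-4.15, limma adjusted p = 0.00551), and Pate4 with dim genes left out (limma adjusted p = 0.0413) or only the 6 lateral arrays (limma adjusted p = 0.0275). With the mean of all probe sets, the unequal effect of Svs5 missed the threshold (limma adjusted p = 0.0537). Differences near 0 changed sign: ventral Pate4 to 0.078 and lateral Ceacam10 to 0.051 with joint quantile normalization, and lateral Ceacam10 to 0.11 and lateral Med1 to 0.045 with the mean of probe sets.

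With each array left out, ventral Svs2 ranged from -1.49 to 0.88, Pate4 from -0.67 to 1.29, Svs3a from -0.21 to 0.024, Svs6 from -0.053 to 0.56 and lateral Ceacam10 from -0.031 to 0.016. Single arrays reversed ventral Svs2 to 0.88 and Pate4 to 1.29 (wild-type ventral replicate 3), Pate4 to 0.19 (knockout ventral replicate 2), Svs3a to 0.024 and Svs6 to -0.053 (knockout ventral replicate 3), and lateral Ceacam10 to 0.016 (wild-type lateral replicate 3), 0.0026 and 0.0058 (labelled-knockout lateral replicates 2 and 3). In ventral prostate 0 to 1 secretory genes were higher and 0 to 1 lower. Without knockout ventral replicate 3, ventral Med1 missed the threshold (limma adjusted p = 0.0518). Genes called over the whole array numbered 941 to 1760 in ventral prostate (1652 over all arrays), 499 to 1168 in lateral prostate (916) and 1103 to 1732 for unequal effects (1693). Without both arrays named above they numbered 860, 583 and 973, and with only the 6 ventral arrays 965. The lowest counts came without wild-type ventral replicate 3 (941) and wild-type lateral replicate 3 (499 and 1103); wild-type ventral replicate 1 (1033), knockout ventral replicate 3 (1086), wild-type lateral replicate 2 (588) and labelled-knockout lateral replicate 2 (513) also lowered them by over 1.5 times. The causes were not tested.

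Same-numbered arrays deviated together over all genes at r of -0.061 to 0.116, over 0.1 in 1 of 12 pairs. These correlations cannot tell whether same-numbered arrays share an animal or a dissection. The replicate block changed no call of the 7 genes, with 4 lower in lateral prostate and Pate4 at a limma adjusted p of 0.0791, and 848 of all genes called there. Low ventral signal limits what can be said of Svs2, Svs3a, Svs4, Svs6 and Pate4 there.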
